A study of Bos taurus with 10 samples.

Results

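The calgranulins S100A8, S100A9 and S100A12 are small calcium-binding proteins of the S100 family that neutrophils and monocytes make in large amounts. Their transcripts were followed in white blood cells of 10 heifers as 3 of the 27570 Ensembl gene IDs counted in each library: ENSBTAG00000012640 for S100A8, ENSBTAG00000006505 for S100A9 and ENSBTAG00000012638 for S100A12. The rule that picks them names the IDs and uses no measured value, but it was set with earlier results of these data known. All 3 passed the filter on low counts. The files give IDs only, and the gene table used here holds no Ensembl ID, so the pairing of these 3 IDs with their symbols, which came with the selection, was not checked.

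All 10 animals were nulliparous Holstein heifers that had received a fresh embryo produced by fertilisation in vitro, so the non-pregnant group had also undergone embryo transfer. Pregnancy was diagnosed on day 21 after transfer, and 5 heifers were recorded as pregnant and 5 as non-pregnant. Each library held RNA of peripheral white blood cells of a heifer. The age of the animals, the day of blood sampling, the white cell counts and whether non-pregnant heifers had lost an embryo were not stated in the sources used here.

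S100A8 and S100A9 pair into calprotectin, a heterodimer that makes up much of the neutrophil's cytosolic protein, is released at sites of inflammation and withholds zinc and manganese from microbes. Extracellular S100A8 and S100A9 are ligands of TLR4 and of RAGE, the receptor for advanced glycation end products. S100A12, also called calgranulin C or EN-RAGE, is likewise a neutrophil and monocyte product, binds zinc, copper and calcium, and was named for its binding to RAGE. Mice and rats lack S100A12, whereas cattle have all 3 genes. In dairy cattle these proteins are best known from inflammation of the udder and the uterus. In the RefSeq gene table of assembly ARS-UCD2.0 the 3 genes follow each other on chromosome 3 in the order S100A8, S100A12, S100A9, with no other listed gene between them.

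Library totals ran from 14146666 to 22146290 counts. Their mean was 18795083 ± 2690815 for the pregnant and 17002009 ± 2654697 for the non-pregnant group (SD, n = 5 each; two-sided exact permutation p = 0.317). Non-pregnant heifers 3 and 4 had the 2 lowest totals, and they also had the 2 lowest levels of each calgranulin. Levels are given as CPM, reads of a gene relative to the size of its library after TMM scaling, which evens out differences in composition between libraries. Depth did not limit these genes: the lowest counts were 2098 for S100A8, 2040 for S100A9 and 9188 for S100A12, for which counting error alone is 2.18%, 2.21% and 1.04% of the value.

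All 3 calgranulins stood among the well-expressed genes of the white blood cells. In mean log2 CPM, S100A8 lay above 95.2%, S100A9 above 96.5% and S100A12 above 99.4% of the 14165 tested IDs. These percentages rank reads per gene and not per length, since transcript lengths were not used here, so they do not order the 3 genes against each other. By read count within a library, S100A12 ranked between 48 and 213, S100A8 between 343 and 1399, and S100A9 between 271 and 1447. Together the 3 genes took 0.198% ± 0.0438 of the counts in the pregnant and 0.136% ± 0.0427 in the non-pregnant group (SD, n = 5 each), with single libraries between 0.0878% in non-pregnant heifer 4 and 0.249% in pregnant heifer 2.

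**Figure D1:**
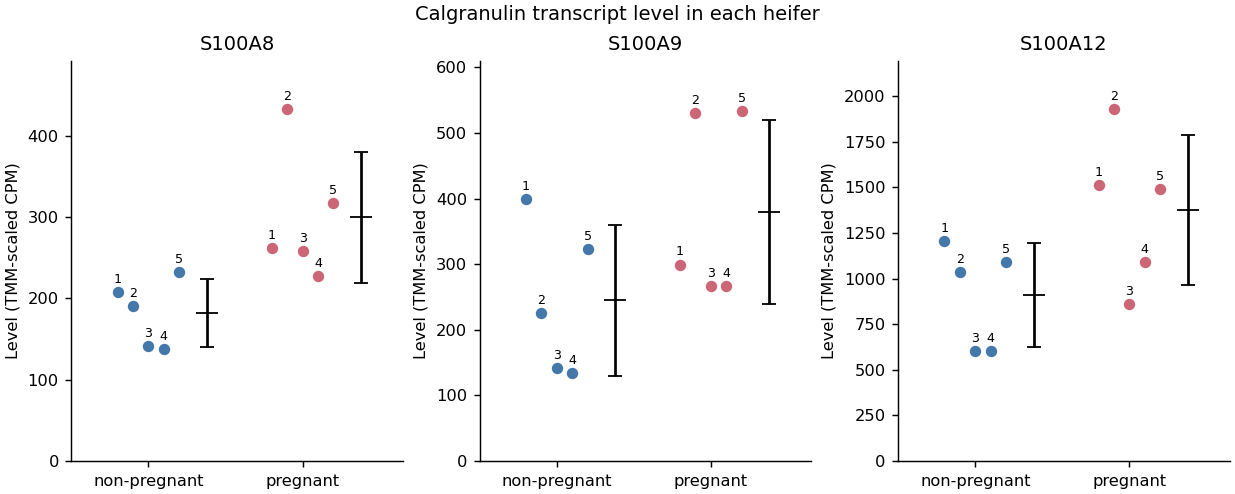
Level of S100A8, S100A9 and S100A12 in each heifer (TMM-scaled CPM, vertical axes from 0), with the heifer's number within its group beside each point. Black bars give the group mean and SD (n = 5). Non-pregnant heifers 3 and 4 are lowest for all 3 genes, and the groups overlap for each gene.

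S100A8, a subunit of calprotectin, had the smallest spread within the groups and the largest fold change of the 3 genes. Its level in pregnant heifers 1 to 5 was 262, 432, 258, 228 and 317 CPM. In non-pregnant heifers 1 to 5 it was 208, 190.4, 141, 138 and 232 CPM. The groups overlapped by a single pair, pregnant heifer 4 lying just under non-pregnant heifer 5, and the pregnant animal was higher in 24 of the 25 pairings across the groups. At least 24 such pairs were found for 0.671% of all tested IDs. The group means were 299 ± 80.9 CPM and 182 ± 41.3 CPM (SD, n = 5 each, pregnant first). The log2 fold change was 0.72 (SE 0.20), which is 1.64-fold with a 95% interval of 1.23 to 2.20. edgeR's quasi-likelihood test gave an unadjusted p of 0.00255, the 35th smallest of the 14165 IDs, and a Benjamini-Hochberg adjusted p of 0.871. S100A8 therefore did not pass the threshold of 0.05 over all genes.

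S100A9, the other subunit of calprotectin, spread more widely within each group. Its level in pregnant heifers 1 to 5 was 299, 530.0, 267, 267 and 534 CPM. In non-pregnant heifers 1 to 5 it was 399, 226, 141, 134 and 324 CPM. Pregnant heifers 2 and 5 lay above all others, but non-pregnant heifers 1 and 5 lay above the remaining 3 pregnant heifers. The pregnant animal was higher in 19 of 25 pairs, a number reached by 10.8% of all tested IDs. The means were 379.6 ± 139.7 CPM and 245 ± 116 CPM (SD, n = 5 each, pregnant first). The log2 fold change was 0.63 (SE 0.33), or 1.55-fold with a 95% interval of 0.951 to 2.53 (edgeR unadjusted p = 0.0744, adjusted p = 0.994). The interval holds both no difference and a difference of more than 2.5-fold.

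S100A12, the calgranulin outside the heterodimer, was intermediate in its spread within the groups. Its level in pregnant heifers 1 to 5 was 1511, 1927, 861, 1091 and 1493 CPM. In non-pregnant heifers 1 to 5 it was 1207, 1038, 604, 605 and 1092 CPM. Pregnant heifers 1, 2 and 5 lay above every non-pregnant heifer, while pregnant heifer 3 lay below 3 of them. The pregnant animal was higher in 20 of 25 pairs, a number reached by 6.88% of all tested IDs. The means were 1377 ± 413 CPM and 909 ± 285 CPM (SD, n = 5 each, pregnant first). The log2 fold change was 0.60 (SE 0.25), or 1.51-fold with a 95% interval of 1.05 to 2.19 (edgeR unadjusted p = 0.0297, adjusted p = 0.941).

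Over the set, 0 of 3 calgranulins passed an adjusted p of 0.05, and edgeR called 0 of 14165 IDs (0.00%). Before adjustment 715 of these IDs lay under 0.05, about the share that this threshold passes when no ID differs. Among the other tools, limma-voom called 0 IDs and DESeq2 5, with 0 calgranulins in either. An exact two-sided permutation test of log2 CPM gave p = 0.0159 for S100A8, 0.119 for S100A9 and 0.0873 for S100A12, with adjusted p of 0.852 or more over all tested IDs. At an unadjusted p under 0.05 with a higher level in pregnant heifers there were 2 of 3, S100A8 and S100A12, against 2.24% of all tested IDs. All 3 had a log2 fold change above 0, as did 51.3% of tested IDs, and all 3 were at least 1.5-fold higher in pregnant heifers, against 3.37%. The median log2 fold change was 0.63 for the 3 genes and 0.01 for all tested IDs. The groups were separate for 0 of 3, against 0.953% of tested IDs. These counts are not 3 independent observations, because the 3 genes varied together from animal to animal. The size of the difference depended on the libraries included. Non-pregnant heifers 3 and 4 had the lowest levels of each calgranulin, so leaving them out narrows the difference by construction. Without non-pregnant heifers 3 and 4, left out for their totals after the data were seen, the log2 fold changes were 0.51 (SE 0.20) for S100A8, 0.26 (SE 0.28) for S100A9 and 0.30 (SE 0.23) for S100A12. Among those 8 heifers the intervals of S100A9 and S100A12 included no difference.

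**Figure D2:**
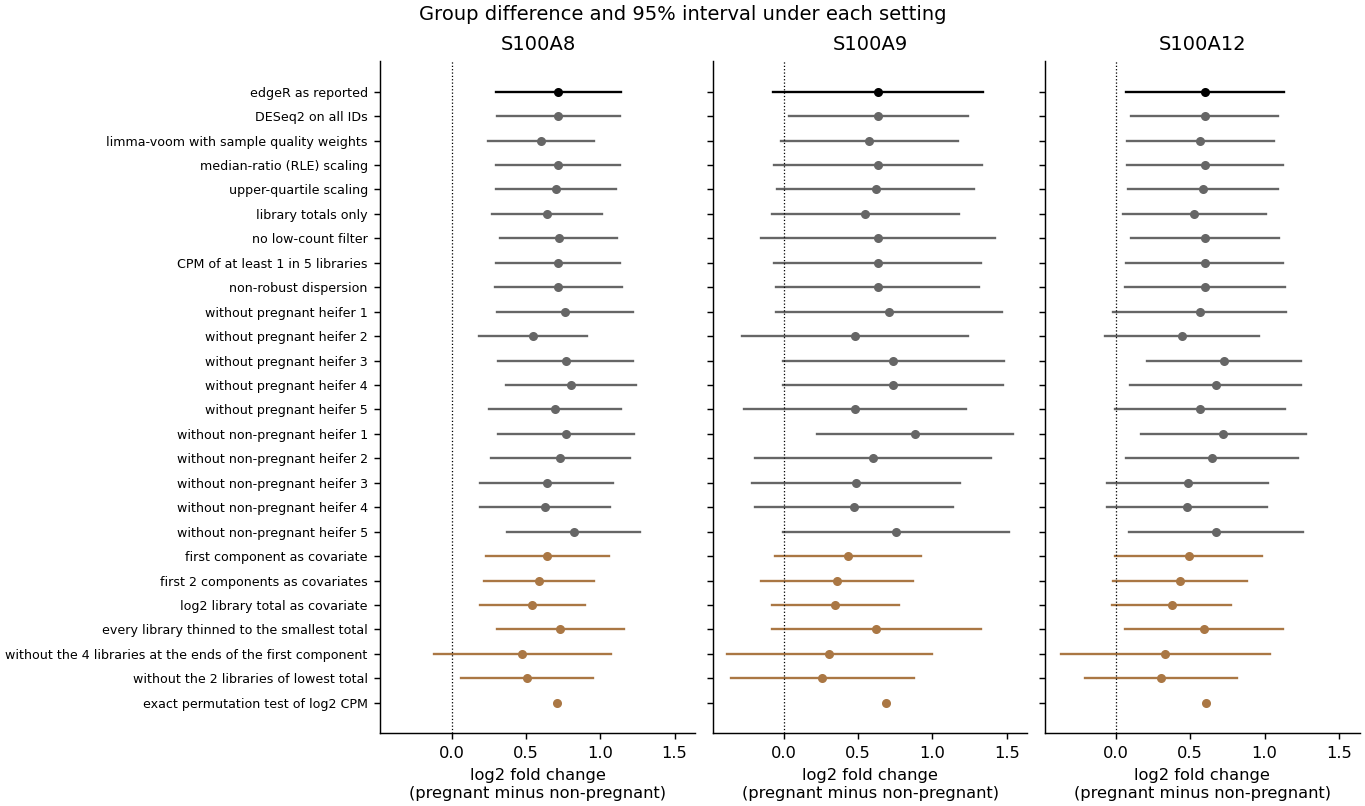
Log2 fold change of each calgranulin (horizontal axis, pregnant minus non-pregnant) with its 95% interval under every setting tried. Black is the edgeR test as reported, grey the other tools, scalings, filters and left-out animals, and brown the settings added after the data were seen; the permutation test gives no interval. All points lie above 0, between 0.26 and 0.88.

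The calgranulins differed between animals of the same group more than most other well-expressed genes did. The within-group SD of log2 CPM was 0.35 for S100A8, 0.62 for S100A9 and 0.47 for S100A12, against a median of 0.34 over all tested IDs. Among 1482 IDs whose mean log2 CPM was 7 or more, for which the median SD was 0.25, 79.8% varied less than S100A8, 97.9% less than S100A9 and 92.9% less than S100A12. From the lowest to the highest of the 10 heifers the level spanned 3.13-fold for S100A8, 3.98-fold for S100A9 and 3.19-fold for S100A12. In bulk white blood cells, a smaller number of neutrophils or monocytes and less calgranulin RNA per cell cannot be told apart. Cell type markers were not analysed here, since no ID besides these 3 was paired with a symbol, so the makeup of the white blood cells was not measured and its part in these differences was not tested.

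The 3 genes kept the same order of animals to a large degree. Over the 10 heifers, log2 CPM of S100A9 and S100A8 correlated with Pearson's r = 0.90 (permutation p = 0.00082) and Spearman's rho = 0.81 (permutation p = 0.00754). S100A12 and S100A8 gave r = 0.90 (permutation p = 0.00073) and rho = 0.82 (permutation p = 0.00610). For S100A12 and S100A9 r was 0.92 (permutation p = 0.00057) and rho 0.88 (permutation p = 0.00160). Adjusted over the 3 pairs, the p-values were 0.00082 for each r, and 0.00754, 0.00754 and 0.00480 for rho. Within the groups of 5, r ran from 0.78 to 0.88 in pregnant and from 0.94 to 0.96 in non-pregnant heifers. Without the 2 heifers farthest from the median of the gene on the horizontal axis r was 0.84 for S100A9 with S100A8, 0.79 for S100A12 with S100A8 and 0.77 for S100A12 with S100A9. Without non-pregnant heifers 3 and 4 it was 0.76, 0.76 and 0.77. For S100A12 with S100A9 these were the heifers already left out as farthest from the median, so the 0.77 is the same calculation. The values of a heifer share a library and its scaling factor, which raises such correlations to an extent that was not tested.

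**Figure D3:**
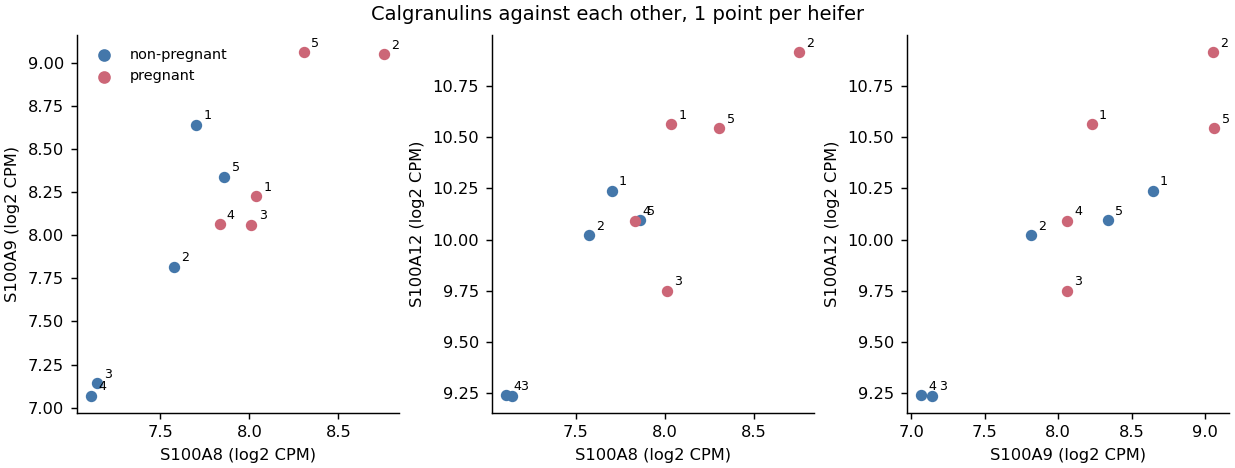
Log2 CPM of the calgranulins against each other, 1 point per heifer, coloured by group and numbered within it. The points rise together in all 3 panels (r between 0.90 and 0.92), with non-pregnant heifers 3 and 4 at the low end and pregnant heifer 2 at or next to the high end.

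A ratio of 2 genes within a library does not depend on how libraries are scaled, and gene length cancels when ratios are compared between animals. The ratio of S100A9 to S100A8 reads was 1.14, 1.23, 1.04, 1.17 and 1.69 in pregnant heifers 1 to 5 and 1.92, 1.18, 0.997, 0.972 and 1.39 in non-pregnant heifers 1 to 5. Non-pregnant heifer 1 and pregnant heifer 5, from different groups, had the highest ratios. The mean log2 ratio was 0.30 ± 0.27 and 0.32 ± 0.40 (SD, n = 5 each, pregnant first), a difference of -0.02 (exact permutation p = 0.952, two-sided). The ratio of S100A12 to S100A8 ran from 3.34 in pregnant heifer 3 to 5.80 in non-pregnant heifer 1, with mean log2 ratios of 2.18 ± 0.28 and 2.29 ± 0.19 (SD, n = 5 each, pregnant first; difference -0.10, exact permutation p = 0.587). The ratio of S100A12 to S100A9 ran from 2.80 in pregnant heifer 5 to 5.05 in pregnant heifer 1, with mean log2 ratios of 1.88 ± 0.33 and 1.96 ± 0.27 (SD, n = 5 each, pregnant first; difference -0.09, exact permutation p = 0.651). Adjusted over the 3 ratios, each p was 0.952. No difference in proportion between the groups was detected, and each difference was smaller than the SD within either group.

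**Figure D4:**
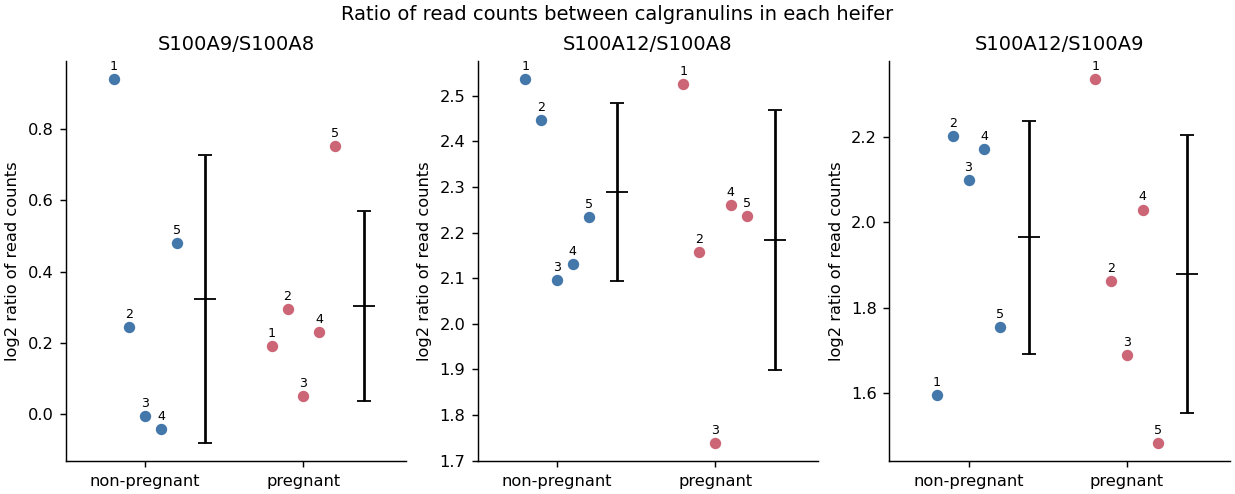
Log2 ratio of read counts between calgranulins in each heifer, numbered within its group; black bars give mean and SD (n = 5). The groups overlap in all 3 panels, with differences between the means of -0.02, -0.10 and -0.09 (pregnant minus non-pregnant). The vertical axes do not start at 0.

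The ratios varied less than the levels for S100A12. The within-group SD of the log2 ratio was 0.24 for S100A12 to S100A8 and 0.30 for S100A12 to S100A9, below the SD of either gene's own level. For S100A9 to S100A8 it was 0.34, which is below the 0.62 of S100A9 and close to the 0.35 of S100A8. Over the 10 heifers the ratios spanned 1.97-fold for S100A9 to S100A8, 1.74-fold for S100A12 to S100A8 and 1.80-fold for S100A12 to S100A9.

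The calgranulins were also set against the library total and against the main direction in which all other genes varied. They were higher in the larger libraries, although CPM is already relative to library size. Over 10 heifers S100A8 correlated with the total at r = 0.70 (permutation p = 0.0219, adjusted 0.0493 over 9 relations) and rho = 0.59 (permutation p = 0.0811, adjusted 0.146). S100A9 gave r = 0.84 (permutation p = 0.00215, adjusted 0.0172) and rho = 0.87 (permutation p = 0.00230, adjusted 0.0126). For S100A12 the values were r = 0.80 (permutation p = 0.00572, adjusted 0.0172) and rho = 0.79 (permutation p = 0.00934, adjusted 0.0280). Without pregnant heifer 2 and non-pregnant heifer 1, the libraries farthest from the median total, r was 0.68, 0.78 and 0.75 for S100A8, S100A9 and S100A12. Without non-pregnant heifers 3 and 4 it was 0.45, 0.74 and 0.64. Within the groups r ran from 0.68 to 0.74 in pregnant and from 0.75 to 0.91 in non-pregnant heifers. With the log2 total as a covariate, the log2 fold change between the groups was 0.54 (SE 0.16) for S100A8, 0.35 (SE 0.20) for S100A9 and 0.38 (SE 0.19) for S100A12. With every library thinned to 14146666 counts it was 0.73, 0.62 and 0.59, close to the values at full depth. Random thinning keeps each gene's expected share of its library, so these values do not bear on the relation to the total.

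The first principal component of the other tested IDs held 24.7% of their variance and ran from non-pregnant heifers 3 and 4 (scores -36.2 and -34.4) to non-pregnant heifer 1 and pregnant heifer 5 (33.9 and 62.6). S100A9 rose along it, with r = 0.80 (permutation p = 0.00413, adjusted 0.0172) and rho = 0.85 (permutation p = 0.00281, adjusted 0.0126). With a first component taken only from IDs of mean log2 CPM of at least 4, r of S100A9 was 0.58 and did not pass the threshold (permutation p = 0.0826, adjusted 0.165 over the relations to such components). That component ordered the heifers differently: pregnant heifer 2 scored -19.2 on it and -3.78 on the component of all other IDs. On the component of all other IDs, S100A12 gave r = 0.63 (permutation p = 0.0496, adjusted 0.0893) and rho = 0.70 (permutation p = 0.0316, adjusted 0.0712), and S100A8 r = 0.53 (permutation p = 0.115, adjusted 0.173) and rho = 0.52 (permutation p = 0.133, adjusted 0.199). Without pregnant heifer 5 and non-pregnant heifer 1, the farthest from the median score, r was 0.81, 0.78 and 0.72 for S100A9, S100A12 and S100A8. Without non-pregnant heifers 3 and 4 it was 0.64, 0.27 and 0.11, so the relations of S100A12 and S100A8 rested on that pair of libraries. With this component as a covariate the log2 fold change between the groups was 0.64 (SE 0.19) for S100A8, 0.43 (SE 0.23) for S100A9 and 0.49 (SE 0.23) for S100A12. On the second component pregnant heifer 2 and non-pregnant heifer 2 (52.3 and 41.1) form a cluster of their own, and among the other 8 heifers r was -0.13, 0.03 and 0.05 for S100A8, S100A9 and S100A12 (exact permutation p of 0.746, 0.939 and 0.904, adjusted 0.939 each). These values depended on the IDs used: with components from IDs of mean log2 CPM of at least 4, r was 0.53, 0.71 and 0.66 (exact permutation p of 0.172, 0.0433 and 0.0782, adjusted 0.259, 0.165 and 0.165).

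**Figure D5:**
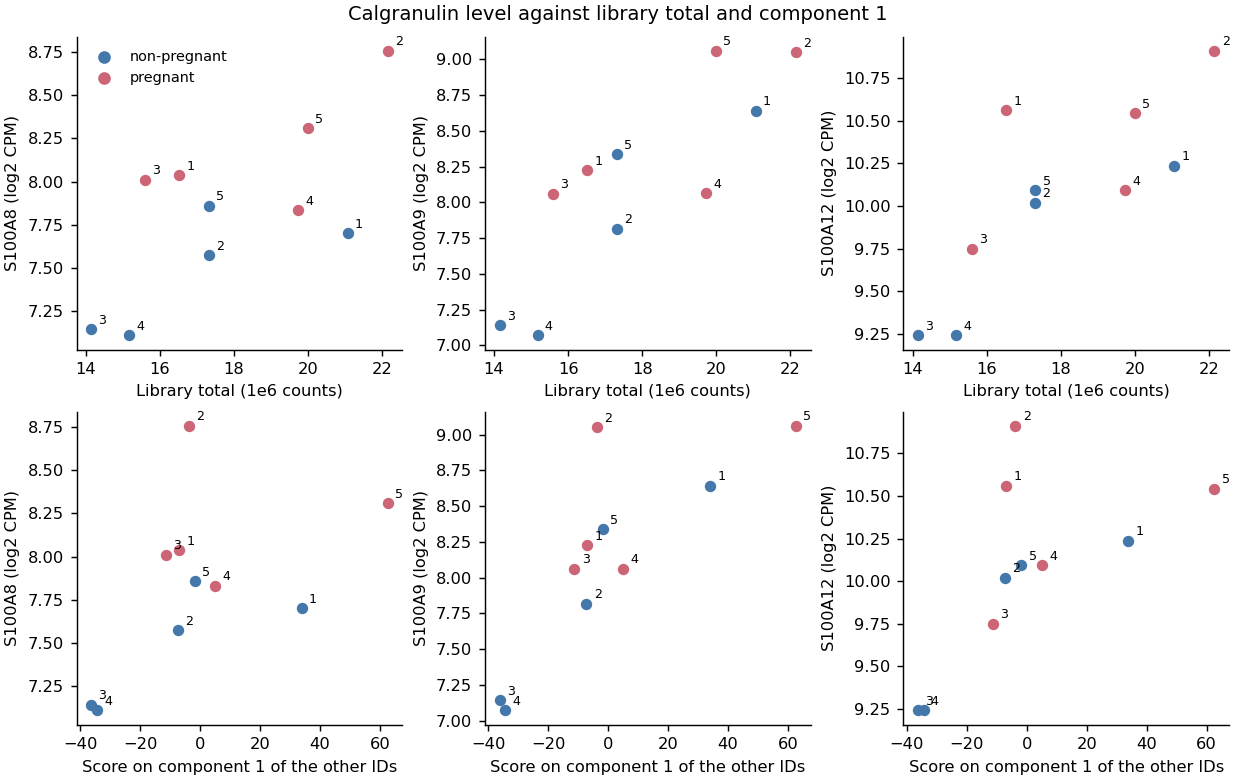
Log2 CPM of each calgranulin against the library total (top) and against the score on the first component of all other tested IDs (bottom), 1 point per heifer, coloured by group and numbered within it. Non-pregnant heifers 3 and 4 hold the low end of every panel; S100A9 follows both measures most closely (r = 0.84 and 0.80).

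Among the 7576 other IDs with a mean log2 CPM of at least 4, the patterns most like the standardized mean of the 3 calgranulins over the 10 heifers were those of ENSBTAG00000021785 and ENSBTAG00000048980, both with Pearson's r = 0.93. The former ran from 31.2 CPM in non-pregnant heifer 3 to 57.5 CPM in pregnant heifer 5. The latter ran from 521 CPM in non-pregnant heifer 3 to 1996 CPM in pregnant heifer 2, a span like that of the calgranulins themselves. The most opposite patterns were those of ENSBTAG00000005757 (r = -0.90, 48.1 to 77.6 CPM) and ENSBTAG00000001771 (r = -0.89, 171 to 239 CPM), both lowest in pregnant heifer 2 and highest in non-pregnant heifer 3. Likeness was the criterion by which these IDs were picked out of many, so the r values describe them and test nothing. An r of at least 0.8 was found for 170 IDs and of at most -0.8 for 32.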

How the data were processed

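White blood cell RNA of 5 pregnant and 5 non-pregnant heifers was sequenced on an Illumina HiSeq instrument, per the labels' protocols. Build ARS-UCD1.2 and the tools HTSeq, HISAT2, Trim Galore 0.4.4 and FastQC 0.11.7 are listed in the submitters' processing notes. The sources used here state neither strand type, annotation release nor the treatment of reads shared between gene copies. The authors deposited raw read counts per Ensembl gene ID, per the file headers.

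The 3 genes, the lists and the tests were chosen with earlier results of these data known. IDs were filtered with filterByExpr (minimum count 10, minimum total 15), scaled by TMM and compared with edgeR 4.0.16 (robust quasi-likelihood, R 4.3.3), adjusting over all 14165 tested IDs by Benjamini-Hochberg; limma 3.58.1 and DESeq2 1.42.0 were alternatives. Intervals rest on the spread between libraries, with the variance estimate of each ID moderated by those of the other IDs. They are not adjusted for the number of IDs. Log2 CPM used a prior count of 2. Ratios were tested by exact permutation (252 assignments, smallest p 0.00794), and correlations with 100000 permutations, or exactly for 8 heifers. Replicate numbers only name animals, and no label gives a batch or date. No 2 libraries of a group agreed within sampling noise (lowest chi-square 20.3 per degree of freedom over 20 pairs). The gene test and the permutation tests were tested on simulated data.

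Named genes were the 3 calgranulins and, by rule, the 2 IDs most and the 2 least like them. The planned lists of S100 genes, receptors, granule proteins and cell type markers were not analysed here, since 0 Ensembl IDs could be matched to symbols.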

Additional observations from a re-analysis of the deposited data

How the results depend on the processing

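Of 25 alternatives, 18 were planned and 7 were added after the data were seen. The direction of the group difference was kept for all 3 calgranulins in 25 of 25, and 0 brought an adjusted p under 0.05. All alternatives reuse the same animals, so the count is not replication. The fit without the robust option returned the fold changes of the main fit, and thinning keeps expected shares. The permutation test could hardly pass after adjustment. Adjusted p ran from 0.239 for S100A8, from 0.544 for S100A9 and from 0.452 for S100A12 up to 0.9999. Unadjusted p was under 0.05 in 24 alternatives for S100A8, in 14 for S100A12 and in 2 for S100A9. Leaving out single animals gave log2 fold changes from 0.55 to 0.82 for S100A8, from 0.47 to 0.88 for S100A9 and from 0.44 to 0.73 for S100A12. Without pregnant heifer 2 the values were 0.55, 0.48 and 0.44 in the same order. Without the 4 libraries at the ends of the first component (non-pregnant heifers 1, 3 and 4 and pregnant heifer 5) the values were 0.48, 0.31 and 0.33. The number of IDs past the threshold was 0 except for 5 with DESeq2 and 2 without those 4 libraries, none of them a calgranulin; the cause was not tested. The 715 IDs under an unadjusted p of 0.05 became 1074 without pregnant heifer 2, 1106 without a low-count filter, 1357 with limma-voom and 1590 with 2 components as covariates. No scaling moved the median of all IDs by over 0.1.

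Differences in the ratios changed sign as single animals were left out, from -0.13 to 0.13 for S100A9 to S100A8, from -0.19 to 0.0064 for S100A12 to S100A8 and from -0.20 to 0.014 for S100A12 to S100A9, on either side of 0. Correlations between the calgranulins kept their call under every alternative scale (r from 0.86 to 0.91). Relations to the components did not. With the first component from IDs of mean log2 CPM of at least 4, r was 0.58 for S100A9 (permutation test, adjusted p = 0.165). With the second, r among 8 heifers was 0.53, 0.71 and 0.66 for S100A8, S100A9 and S100A12 (adjusted p of 0.259, 0.165 and 0.165). On components of all other IDs the 2 heifers farthest from the median score were left out. With the first, r was then 0.72 for S100A8 and 0.78 for S100A12 (adjusted p = 0.0486 each). With the second, r among 6 heifers was 0.57, 0.91 and 0.84 for S100A8, S100A9 and S100A12, against -0.13, 0.03 and 0.05 among 8. The cause was not tested. No paired analysis was possible because no label ties animals across the groups. The relation to marker lists was not run. Counting error was small for these genes, and thinning the libraries, which keeps each gene's expected share, changed their values little.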

Other observations

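The highest and the lowest proportions of the calprotectin subunits were found in the heifers at the ends of the first component of all other tested IDs. The ratio of S100A9 to S100A8 reads was 1.92 in non-pregnant heifer 1 and 1.69 in pregnant heifer 5, whose component scores of 33.9 and 62.6 were the highest. It was 0.997 in non-pregnant heifer 3 and 0.972 in non-pregnant heifer 4, whose scores of -36.2 and -34.4 were the lowest. Both ends thus include non-pregnant heifers. Within each end the order was not that of the scores. The low end depended on the IDs used. On the first component of IDs with mean log2 CPM of at least 4, pregnant heifer 2 scored -19.2, at a ratio of 1.23. On that component non-pregnant heifers 3 and 4 scored -13.3 and -19.3. The pattern was seen after the values were known and is given as a description.

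Pregnant heifer 3 had the lowest ratio of S100A12 to S100A8, 3.34, where the other 9 heifers lay between 4.27 and 5.80. Its S100A8, 258 CPM, stood above all non-pregnant heifers, while its S100A12, 861 CPM, was the lowest among pregnant heifers.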
